A study of Rattus norvegicus with 16 samples.

Results

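The strain difference in the lung response to sulfur dioxide (SO2) was measured as an interaction: the SO2 effect in spontaneously hypertensive (SH) rats, SO2 minus air, minus the same effect in Sprague Dawley (SD) rats. All 16 arrays of the series entered this contrast, 8 from each strain, and 15 did when the array labelled SD air replicate 2 was left out. The study asked, by its title, whether SH rats can stand in for SO2-induced disease of the airways. Biotin-labelled total RNA from lung was hybridised to Affymetrix arrays in 4 groups of 4 biological replicates: SH air, SH SO2, SD air and SD SO2. The groups share the tissue, and no allele, transgene or further agent is named for any of them. SH rats are inbred and develop hypertension, and SD rats are an outbred stock, so the strains differ in more than blood pressure. SO2 dose, length of exposure, time of sampling, age and sex, and whether each array is 1 animal, were not stated in the labels used, so p-values measure only the spread between these arrays. Replicates are numbered 1 to 4 within each group in the order of deposit, which only names them, and array values below run from replicate 1 to 4.

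SO2 is a water-soluble irritant gas that forms sulfite on the moist airway lining. Sulfite is cleared by sulfite oxidase, and injured epithelium and macrophages release cytokines such as interleukin-1 beta and chemokines that draw neutrophils into the airways. Signals of the interleukin-6 family act through the transcription factor STAT3 on acute phase and repair genes, while growth factors of the TGF-beta family act on the matrix-producing cells of the airway wall.

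Array medians lay between 250.2 and 282 units of signal, a linear intensity, and the 10th percentile of signal between 17.0 and 26.8. The ratio of actin signal at the 3' end to that at the 5' end, a sign of RNA quality, was 1.49 to 2.36 in SH air, 1.29 to 3.12 in SH SO2, 1.40 to 1.76 in SD air and, after SO2, 1.47 to 2.94 in SD arrays. Lung defining markers were bright on all 16 arrays, with the surfactant gene Sftpc at 24004 to 45111, the club cell gene Scgb1a1 at 22863 to 36625 and the alveolar type I gene Ager at 10829 to 19344. In whole lung, fewer cells of a type and less RNA per cell cannot be told apart. One array lay apart from the others of its label. On 90 probe sets (0.810% of 11106) that differed between the strains in SO2 (limma, adjusted p under 0.05; 45 higher in SH and 45 lower), each array was placed on a scale where 0 is the SD SO2 mean and 1 the SH SO2 mean. SH air arrays lay at 0.69, 0.77, 0.90 and 0.78. SD air arrays lay at 0.16, 0.65, 0.12 and 0.23. The array labelled SD air replicate 2 was thus below every SH air array, but nearer to them than to the other SD air arrays. Terf2ip, which encodes a telomere-binding protein, gave 1982, 694, 2180.0 and 2363 on the SD air arrays and 733, 619.8, 425 and 670.0 on the SH air arrays. SH minus SD, Terf2ip differed by -2.61 in SO2 and by -1.42 in air. Its strain difference in the SO2 response, the interaction, was -1.19 with all arrays and -0.78 without SD air replicate 2. Interaction values of other genes among the 6 of smallest p for strain in SO2 follow, with all arrays and without that one. They were -0.43 and -0.25 (Cd300c2), -0.42 and -0.25 (Cyp2f4), -0.51 and -0.23 (RT1-T24-4), and 1.07 and 0.96 (Ckmt1). For Cd300c2 SD air replicate 2 gave 539.5, between 400 to 429 on SH air and 806.5 to 1041 on other SD air arrays. In the same order Cyp2f4 gave 988, 693 to 898 and 1472 to 1874.5, and RT1-T24-4 gave 1818.5, 1157 to 1446 and 3346 to 4617. Ckmt1 gave 492, 556 to 876 and 252 to 469, so for each of these genes that array lay between. For Defb4, given below, it lay within the SH air range. Between SH and SD rats in air limma called 0 probe sets (0%) with all arrays and 86 (0.774%) without that array. Leaving it out moved the strain difference in the SO2 response by a median of 0.13 on the 90 probe sets and of 0.049 over all 11106. Strain differences below are given with all arrays and, where named, without the array labelled SD air replicate 2.

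**Figure D1:**
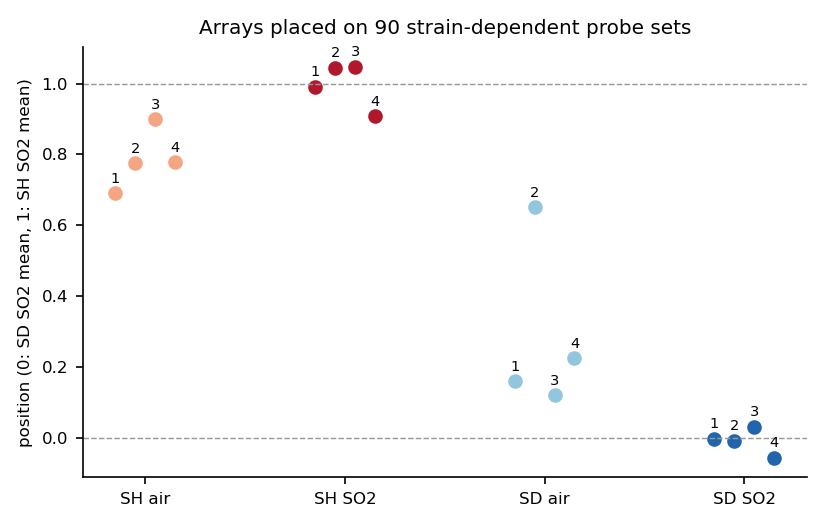
Position of each of the 16 arrays between the SD SO2 mean (0) and the SH SO2 mean (1), as the median over 90 probe sets that differ between the strains in SO2; points are arrays, numbered by replicate. The array labelled SD air replicate 2 lies at 0.65, against 0.12 to 0.23 for the other SD air arrays and 0.69 to 0.90 for the SH air arrays.

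No probe set passed the test of the strain difference: limma called 0 of 11106 (0%) at an adjusted p under 0.05, and the smallest adjusted p was 0.447. At an unadjusted p under 0.05 there were 516 probe sets (4.65%), 241 with a positive and 275 with a negative value, where 555 would be 5% of those tested. Without SD air replicate 2 limma also called 0 (0%), with 656 at an unadjusted p under 0.05 (5.91%) and a smallest adjusted p of 0.629. A positive value means that SO2 minus air was higher in SH than in SD rats, on the log2 scale. The median standard error (SE) of a strain difference was 0.25 and the median half-width of its 95% interval 0.51, so the interval lay within 1 unit of 0, a doubling either way, for 78.6% of probe sets. None of the genes below passed the test, so their values describe these arrays. Of the 516 probe sets, 483 had SO2 effects of opposite sign in the strains. The 516 were chosen for a difference between these effects, so that count describes the choice. Over all probe sets the SO2 effects of the strains, which share no array, correlated weakly (Pearson r 0.11, Spearman rho 0.13, across probe sets and not across animals), and 55.3% had the same sign. The r was 0.025 without SD air replicate 2, 0.037 without SD air replicate 1 and 0.24 without SD air replicate 4, so single SD air arrays set much of it. The number that opens each title runs from 40 to 55 and is partly confounded with group. SH air holds 40 to 43 and SD SO2 47 to 50, each an unbroken run. SH SO2 holds 44 and 51 to 53, and SD air 45, 46, 54 and 55. Values with the number as a covariate therefore cannot fully tell number and group apart. With that title number as a covariate, 28 of the 76 named values moved by over 1.5 times or changed sign, 23 of them to a smaller size, and what the number stands for was not stated in the labels used.

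Among 8060 genes with 1 symbol, each taken by its brightest probe set, 12 of the smallest p were named in each direction. Of these 24 genes, 23 had SO2 effects of opposite sign in the strains. SO2 and air arrays did not overlap in SH rats for 15 of them and in SD rats for 10, and the effect was larger in SH rats for 14 and in SD rats for 10. Over all probe sets, which included these, SO2 and air arrays did not overlap in 4.17% in SH and 3.54% in SD rats. The 24 were chosen on the strain difference itself, so these counts describe the choice. Without SD air replicate 2, 15 of the 24 stayed among the 24 of smallest p, and the values of the 24 were 0.79 to 1.14 times those with all arrays.

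**Figure D2:**
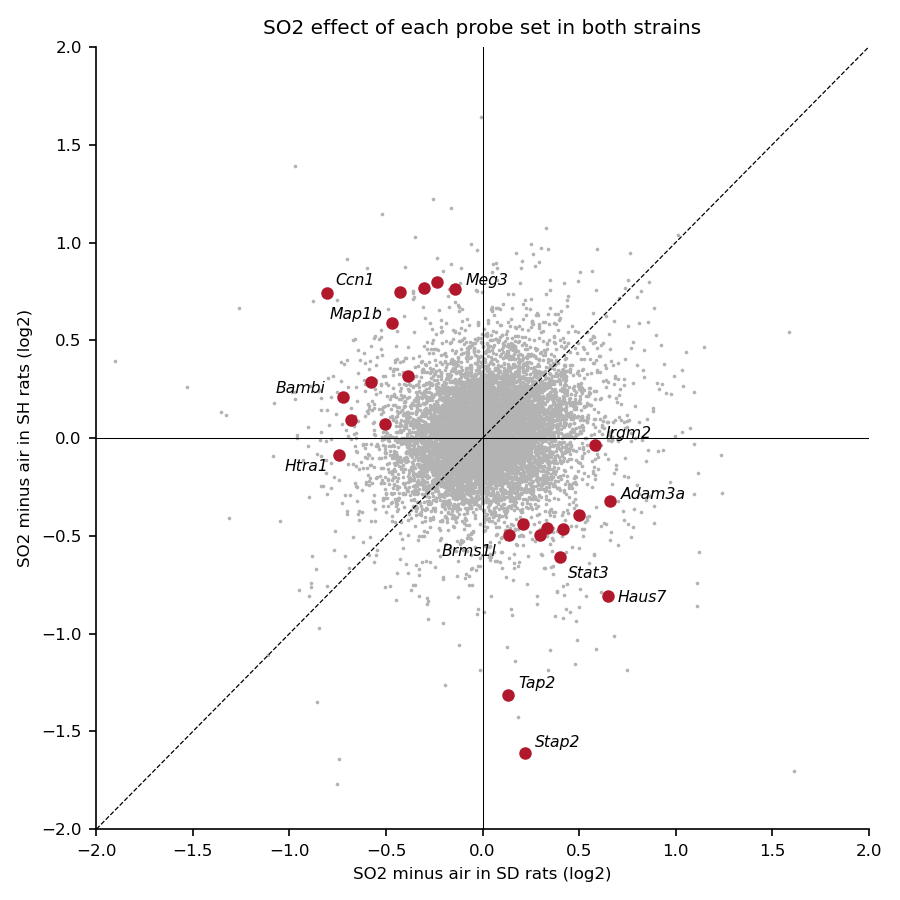
SO2 minus air (log2) of each of 11106 probe sets in SD rats (horizontal axis) and SH rats (vertical axis); red points are the 24 genes of smallest p for the strain difference, 12 of them with their symbol, and the dashed line marks equal effects. The 24 lie away from that line, 23 of them with effects of opposite sign, as they were chosen to do.

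Inflammatory cytokine and chemokine genes with the smallest p had higher SO2 minus air values in SH than in SD rats. For Il1b and Cxcl2 the larger effect was in SH rats, and for Cxcl1 it was in SD rats. Il1b encodes interleukin-1 beta, an early cytokine of inflammation. Its signals were 536, 667, 454 and 385 in SH air and 697, 772, 1222 and 916 in SH SO2. In SD rats they were 539, 513, 401 and 393 in air and 344, 355, 465 and 387 in SO2. Each SH SO2 array lay above every SH air array, whereas the SD groups overlapped. The strain difference of Il1b was 1.04 (SE 0.26, 95% interval 0.49 to 1.58), with an adjusted p of 0.959, and 0.98 without SD air replicate 2. Cxcl1 and Cxcl2, neighbouring chemokine genes whose products attract neutrophils, had strain differences close to that of Il1b. Their promoters in the RefSeq table (GRCr8), the 250 bases before each start, are shown because both hold matches to a form of the NF-kappaB motif (GGG, any 2 bases, then TTTCC), searched on both strands and given in capitals.
Cxcl1, chr14:17479322-17479571, minus strand: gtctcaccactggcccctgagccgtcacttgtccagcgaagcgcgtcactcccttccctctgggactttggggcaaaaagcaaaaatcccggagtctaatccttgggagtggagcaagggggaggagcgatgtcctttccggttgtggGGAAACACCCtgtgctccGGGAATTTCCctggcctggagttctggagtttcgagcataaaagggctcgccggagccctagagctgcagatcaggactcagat
Cxcl2, chr14:17467256-17467505, minus strand: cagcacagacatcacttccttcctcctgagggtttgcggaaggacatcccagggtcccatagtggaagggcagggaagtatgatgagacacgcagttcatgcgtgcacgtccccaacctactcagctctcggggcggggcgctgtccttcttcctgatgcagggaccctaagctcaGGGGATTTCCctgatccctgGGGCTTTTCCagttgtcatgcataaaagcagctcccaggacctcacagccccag
Each held 2 matches. The motif occurred in 1.30% of 33469 promoters of that length and in 4 of the 15 promoters found for tested genes of the inflammatory list. Such a match is a description of the sequence.

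Cxcl2 signals were 126, 131, 81.9 and 119 in SH air and 150.2, 297, 413 and 177 in SH SO2. In SD rats Cxcl2 measured 168, 134, 124 and 217 in air and 136, 150.3, 156 and 159 in SO2. All SH SO2 arrays exceeded all SH air arrays, with replicates 2 and 3 highest, and the SD groups overlapped. The strain difference was 1.05 (SE 0.38, 95% interval 0.26 to 1.84). Cxcl1 differed in shape: it measured 421, 742, 558 and 368 in SH air and 314, 892, 676 and 668 in SH SO2, which overlapped. In SD rats its signals were 912, 506, 921 and 818 in air and 311, 419.9, 509 and 459.6 in SO2. The SD groups overlapped only through SD air replicate 2, the lowest SD air array. For Cxcl1 the strain difference was 1.09 (SE 0.38, 95% interval 0.29 to 1.89), 1.29 without that array and 0.40 with the title number as a covariate. Its effects were 0.24 in SH and -0.85 in SD rats. With that covariate Cxcl2 had 0.66. Adjusted p-values from limma were 0.981 for both chemokines.

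Of 19 tested genes in the inflammatory list, 11 had values above 0, against 51.1% of all genes, and their median was 0.03, against 0.0068 over all genes. At an unadjusted p under 0.05, 3 were positive (Il1b, Cxcl1 and Cxcl2) and 0 negative, against 2.25% and 2.33% of all genes. This list and those below were chosen with earlier results of these data known, so such counts describe the choice. Il18, an interleukin-1 family cytokine, had a value of -0.46 (-0.42 in SH and 0.036 in SD rats), and Ccl20, a chemokine of airway epithelium, one of 0.54; both were picked after their values were seen. The median changed sign in 5 of 30 other settings, from -0.16 with the title number as a covariate to 0.12 without SD air replicate 2. The summed signal of the 7 tested neutrophil markers was 9182 to 14963 in SH air and 6103 to 9457 in SH SO2 arrays. In SD rats the sum was 5169.6 to 10828 in air and 4462 to 10711 in SO2. The ranges overlapped in both strains, none of the 7 reached an unadjusted p under 0.05, and their part in the chemokine values was not tested. Of 15 macrophage markers, 0 were positive and 2 negative at that threshold: Ctsd, a lysosomal protease (-0.54, SE 0.18), and Fabp5, a fatty acid binding protein (-0.40, SE 0.18).

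Stat3 and Stap2 had lower signals after SO2 in SH rats and not in SD rats. Stat3 encodes the transcription factor that carries signals of interleukin-6 and related cytokines. Its signals were 1777, 1878, 1838 and 1812 in SH air and 1531, 863, 895 and 1701 in SH SO2. The SD signals were 2247, 2150.2, 2069 and 1554 in air and 2501, 2995, 2549.8 and 2489 in SO2. Neither strain's groups overlapped, and they lay in opposite order: SO2 below air in SH rats, with replicates 2 and 3 lowest, and SO2 above air in SD rats. SH minus SD effects came to -1.01 (SE 0.25, 95% interval -1.54 to -0.48), with an adjusted p of 0.959 by limma. It was -0.67 with the title number as a covariate. A second Stat3 probe set gave a smaller value of the same sign, -0.48 (SE 0.23).

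Stap2 encodes a signalling adaptor that can bind STAT3, and it had the most negative value of the 24 genes. Its signals were 225, 206, 194 and 133 in SH air and 75.1, 19.0, 63.4 and 60.2 in SH SO2. SD rats gave 195, 189, 212 and 68.3 in air and 198, 221, 111 and 221 in SO2. Every SH SO2 array lay below every SH air array, while the SD groups overlapped and each had 1 low array. This gave a strain difference of -1.83 (SE 0.49, 95% interval -2.86 to -0.80). The signal of 19.0 on SH SO2 replicate 2 lay under the 10th percentile of signal there, 26.8, which makes the size for Stap2 uncertain, and over the other settings it ran from -2.17 to -1.13. In the acute phase and IL-6 list, 7 of 19 tested members lay above 0, with a median of -0.21 and -0.31 without SD air replicate 2. It was -0.13 without SD air replicate 4 and -0.14 without SH SO2 replicate 1. Stat3 and Stap2 were the 2 members at an unadjusted p under 0.05, both negative. Lcn2, an iron-sequestering acute phase protein of airway epithelium and neutrophils, had a value of -0.90 (SE 0.44), and Lbp, the lipopolysaccharide binding protein, one of -0.44 (SE 0.22). Socs3, a direct STAT3 target that inhibits the pathway, had a value of 0.33 (SE 0.33), with 0.059 in SH and -0.27 in SD rats. Lcn2, Lbp and Socs3 were chosen after their values were seen.

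SH SO2 replicates 2 and 3 and SD air replicate 4 were also the arrays on which Clic5, a chloride channel family protein, and Lifr, the receptor of leukemia inhibitory factor, were brightest; Lifr was chosen after its values were seen. Stat3 was lowest of its group on SH SO2 replicate 2, then replicate 3, and on SD air replicate 4, and Stap2 was lowest of its group on SH SO2 replicate 2 and on SD air replicate 4. The strain difference of Stat3 was -0.86, -0.87 and -0.89 without SH SO2 replicate 2, SH SO2 replicate 3 and SD air replicate 4, each left out alone. For Stap2 these were -1.52, -1.92 and -1.49, and for Tap2, described next, -1.46, -1.21 and -1.20. Tap2 was lowest of its group on SH SO2 replicate 3 and SD air replicate 4, while SH SO2 replicate 1 lay below replicate 2. The part of these 3 arrays as a set in the values was not tested.

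**Figure D3:**
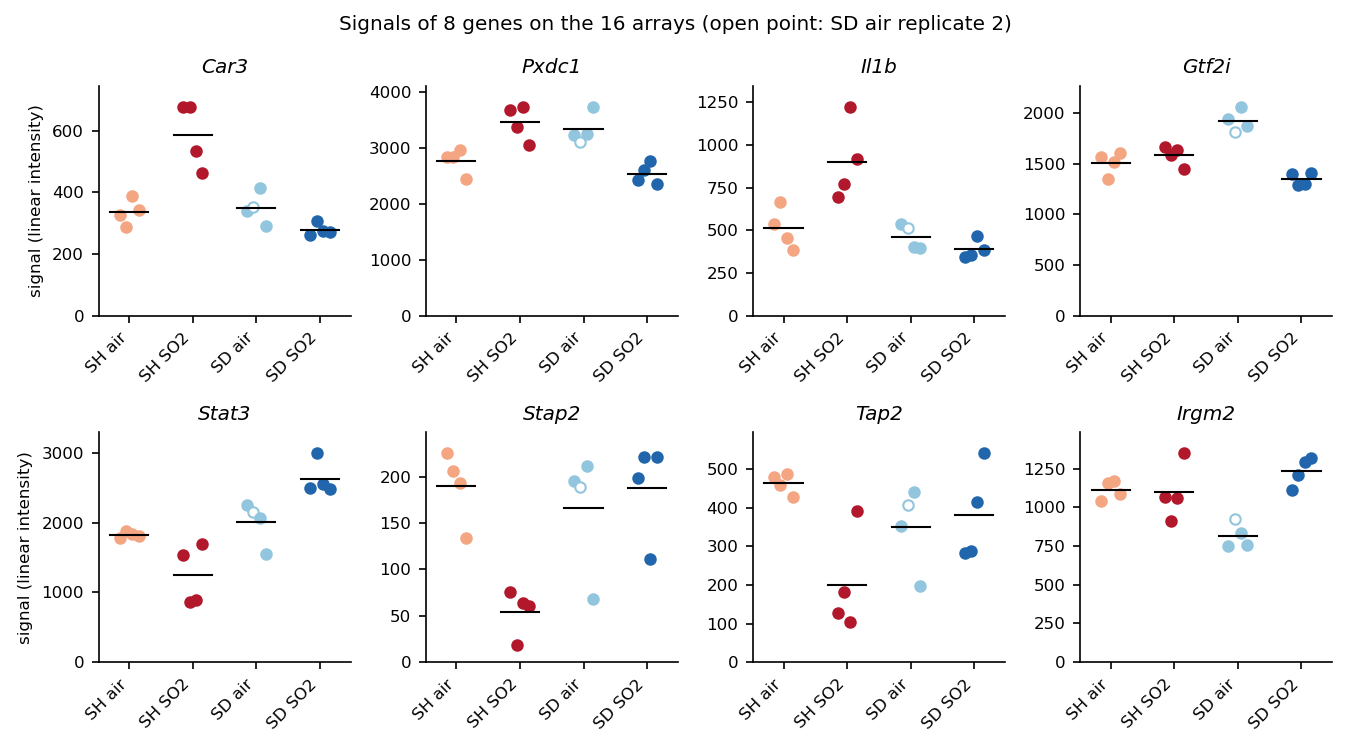
Signal (linear intensity) of 8 of the 24 genes on the 16 arrays, 4 per group; points are arrays, lines are group means, and the open point is the array labelled SD air replicate 2. Car3, Pxdc1 and Il1b are higher in SH SO2 than in SH air on every array, Stat3, Stap2 and Tap2 are lower, Gtf2i is lower in SD SO2 than in SD air on every array, and Irgm2 is higher.

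Tap1 and Tap2, for peptide transport into the endoplasmic reticulum, and Irgm2 and Gbp2, for interferon-induced GTPases, had lower SO2 minus air values in SH than in SD rats. Tap2 encodes a subunit of the transporter that loads peptides for MHC class I molecules. It measured 479.7, 459.9, 488 and 427 in SH air and 128, 182, 103 and 391 in SH SO2. In SD rats Tap2 measured 353, 407, 442 and 196 in air and 283, 289, 414 and 541 in SO2. SH SO2 arrays were all below SH air arrays, with replicate 4 close to them, and the SD groups overlapped. The resulting strain difference was -1.44 (SE 0.43, 95% interval -2.35 to -0.54), with an adjusted p of 0.981 by limma. Tap1, the other subunit, measured 251, 348, 308 and 295 in SD air and 363, 460.2, 383 and 367 in SD SO2, which did not overlap. In SH rats its signals of 315, 369.7, 428 and 364 in air and 269.8, 198, 283 and 397 in SO2 overlapped. The effects of Tap1 were -0.38 in SH and 0.37 in SD rats, a strain difference of -0.75 (SE 0.25, 95% interval -1.27 to -0.24). Tapbp, the tapasin that bridges the transporter to MHC class I, had a value of opposite sign, 0.42 (SE 0.17, 95% interval 0.065 to 0.78). Its SD signals were 669.7, 687, 741 and 785 in air and 544, 433, 635 and 529.5 in SO2, which did not overlap, with SO2 below air.

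Irgm2 encodes an interferon-inducible GTPase. In SD rats its signals were 751, 925, 834 and 759.8 in air and 1110.0, 1208, 1292 and 1316 in SO2. In SH rats they were 1044, 1155, 1170.3 and 1085 in air and 1067, 913, 1063 and 1348 in SO2. The SD groups did not overlap, the SH groups did, and SH air arrays already lay above every SD air array. Its strain difference was -0.62 (SE 0.17, 95% interval -0.97 to -0.26). Gbp2, an interferon-inducible guanylate binding protein, had the same shape, with -0.12 in SH and 0.57 in SD rats and a strain difference of -0.68 (SE 0.23, 95% interval -1.16 to -0.21). Both lists held values on either side of 0: 7 of 18 antigen processing genes lay above 0 with a median of -0.049, and 12 of 29 interferon response genes with a median of -0.058. At an unadjusted p under 0.05 there were 1 positive (Tapbp) and 2 negative members (Tap1 and Tap2) in the first, and 0 positive and 2 negative members (Irgm2 and Gbp2) in the second, against 2.25% and 2.33% of all genes. The summed interferon list signal was 32969 to 41968 in SD air and, after SO2, 42538 to 47926 in SD arrays, which did not overlap. In SH rats it was 42359.8 to 48531 in air and 39351 to 50636 in SO2, which overlapped. Such a gap in SD rats was not particular to this list. The SD sums of the clock, Nrf2 antioxidant and endothelial lists did not overlap either. After SO2 that of the clock list was higher and those of the other lists were lower. Of 10 MHC class II genes, 5 lay above 0 and none was at that threshold.

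Genes of T and natural killer cells lay mostly below 0, with 3 of 18 above and a median of -0.17. Without SD SO2 replicate 1 the median was -0.088, without SD SO2 replicate 2 -0.26 and without SD air replicate 4 -0.28. Without SD air replicate 2, 6 of 18 lay above 0. The median SO2 effect of this list was 0.083 in SH and 0.30 in SD rats, and all 18 effects were above 0 in SD rats against 12 in SH rats. Over all genes 4276 of 8060 effects in SH and 4170 in SD rats were above 0. Prf1, the pore-forming protein of cytotoxic cells, was the 1 member at an unadjusted p under 0.05. Its signals were 740.3, 608, 661 and 741 in SH air and 528, 373, 707 and 623 in SH SO2. SD arrays read 658, 822, 528 and 869.8 in air and 1148, 579.8, 999.9 and 1403 in SO2. SH SO2 replicate 2 and SD SO2 replicate 2 were the lowest arrays of their groups, and both pairs of groups overlapped. The strain difference was -0.80 (SE 0.32, 95% interval -1.47 to -0.12). Beside it, the summed signal of the 18 genes was 6840.5 to 7639 in SH air, 6678 to 8454 in SH SO2, 6339.8 to 9357 in SD air and, after SO2, 7068 to 10215 in SD arrays.

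Defb4, Gp2 and Cyp2a3, genes of secretion and airway epithelium, also had lower values in SH rats. Defb4 encodes a beta-defensin, an antimicrobial peptide of the airway. Its signals were 7697, 9967, 6877 and 8712 in SH air and 5717, 6107, 6390.0 and 6894 in SH SO2. In SD rats they were 15477, 8378, 14625 and 12630.3 in air and 16081, 16846, 16801 and 21205 in SO2. The SD groups did not overlap, the SH groups overlapped at 1 array, and SD air replicate 2 was the lowest SD air array. SH minus SD effects came to -0.90 (SE 0.22, 95% interval -1.36 to -0.43) and -0.71 without that array. Defb4 also differed between the strains in SO2 by -1.49, SH minus SD. Gp2, a glycoprotein of secretory and antigen-sampling epithelium, measured 139, 133, 154 and 320.0 in SD air and 1055, 238, 291 and 478 in SD SO2. In SH rats it measured 202, 127, 81.4 and 254 in air and 104, 135, 133 and 124 in SO2. SD SO2 replicate 1 stood far above all other arrays, and the strain difference was -1.52 (SE 0.54, 95% interval -2.64 to -0.39). Cyp2a3, a cytochrome P450 of airway epithelium, had -0.47 in SH and 0.52 in SD rats and a strain difference of -0.99 (SE 0.33, 95% interval -1.67 to -0.31). Of 13 club cell genes, 3 lay above 0, with a median of -0.23. Scgb1a1, the main secretory protein of club cells, lay near 0 at 0.038 (SE 0.15). Of 5 ciliated cell genes, 1 lay above 0, with a median of -0.20 (-0.11 without SH SO2 replicate 2), and of 13 mucous and goblet cell genes, 7 did, with a median of 0.0023.

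Cdh11, Htra1, Bambi and Loxl1 had higher SO2 minus air values in SH than in SD rats. The SD SO2 arrays of all 4 lay below the SD air arrays, a separation in either direction that 3.54% of all probe sets showed in SD rats. These 4 genes were named for a small p of the strain difference, and Cdh11 and Htra1 also for SO2 in SD rats. Their separation thus describes the choice. Cdh11, a cadherin of mesenchymal cells, measured 476, 427, 506 and 316 in SD air and 234, 300.1, 266 and 242 in SD SO2. In SH rats it measured 373, 396, 469.8 and 382 in air and 454, 456, 403 and 414 in SO2. The SD groups did not overlap and the SH groups did. Htra1, a secreted protease that cleaves matrix proteins, measured 1938, 1819, 2015 and 1396 in SD air and 1127, 1037, 1119.8 and 943 in SD SO2. Its SH signals were 1504, 1923, 1967 and 2104 in air and 1949.8, 1876, 1549.9 and 1662 in SO2. Again only the SD groups were apart. The strain differences were 0.77 (SE 0.21, 95% interval 0.34 to 1.21) for Cdh11 and 0.66 (SE 0.19, 95% interval 0.27 to 1.05) for Htra1. Bambi, a decoy receptor that dampens TGF-beta signals, had 0.21 in SH and -0.72 in SD rats and a strain difference of 0.94 (SE 0.27). Loxl1, an enzyme that crosslinks elastin, had 0.36 in SH and -0.59 in SD rats and a strain difference of 0.94 (SE 0.28, 95% interval 0.36 to 1.53).

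Ccn1 encodes a matricellular protein induced early by growth factors and stretch, and it had the largest positive value of the 24 genes. Its signals were 230.4, 176, 299.6 and 302 in SH air and 498, 330.4, 691 and 277 in SH SO2. The SD signals were 81.1, 258, 114 and 229 in air and 81.9, 93.7, 69.6 and 82.7 in SO2. Both pairs of groups overlapped, and SD air replicates 2 and 4 stood above the other SD arrays. This gave a strain difference of 1.55 (SE 0.44, 95% interval 0.63 to 2.47), and 1.32 without SD air replicate 2. The immediate early list, which holds Ccn1, had 14 of 21 members above 0 and a median of 0.12. Without SD SO2 replicates 2 or 4, each left out alone, that median was 0.012 and 0.019. It was 0.060 without SD air replicate 2, 0.061 without SD air replicate 3, 0.067 without SH air replicate 2 and 0.20 without SH SO2 replicate 4. In that list Ier3 (0.58) was positive and Klf6 (-0.56) negative at an unadjusted p under 0.05.

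In the matrix list 37 of 50 tested members lay above 0, against 51.1% of all genes, with a median of 0.18. At an unadjusted p under 0.05, 7 were positive (Cdh11, Htra1, Loxl1, Eln, Lamb1, Col14a1 and Lamc1) and 1 negative, against 2.25% and 2.33% of all genes. The list was chosen with earlier results of these data known, so these counts describe the choice. The negative member was Bmp1, the protease that trims procollagen, with 0.09 in SH and 0.75 in SD rats and a strain difference of -0.66 (SE 0.23, 95% interval -1.14 to -0.18). The median SO2 effect of the list was 0.041 in SH and -0.087 in SD rats, and the median strain difference was 0.015 when the title number entered as a covariate. Eln, which encodes elastin, is described because it entered the 24 genes of smallest p without SD air replicate 2. Its signals were 1290.0, 502, 1449 and 986 in SD air and 527, 782, 643 and 793 in SD SO2. In SH rats they were 541, 461, 428 and 352 in air and 431, 642, 761 and 653 in SO2. SD air replicate 2 lay within the range of the SH air arrays, and the other SD air arrays were the highest of all 16. The difference between strains for Eln was 0.98 (SE 0.36, 95% interval 0.24 to 1.72) with all arrays and 1.30 without that array. The laminin chain Lamb1 had a value of 0.69 (SE 0.26) and collagen Col1a1 one of 0.54 (SE 0.29).

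Car3 had the smallest p of all genes. It encodes carbonic anhydrase 3, abundant in fat and skeletal muscle. Its signals were 326, 289, 388 and 341 in SH air and 678, 676, 533 and 463 in SH SO2. SD rats gave 338, 352, 414 and 292 in air and 261, 306, 275 and 270.0 in SO2. Every SH SO2 array exceeded all other arrays of the series, and in SD rats the groups overlapped at 1 air array. The resulting strain difference was 1.07 (SE 0.21, 95% interval 0.63 to 1.51), with an adjusted p of 0.447 by limma, and a second Car3 probe set gave 1.12 (SE 0.49). Among 27 tested adipocyte genes, which include Car3, 20 lay above 0 with a median of 0.16. Pck1, the first committed enzyme of glucose and glycerol synthesis, had a value of 0.98 (SE 0.40, 95% interval 0.15 to 1.81), and Scd, a fatty acid desaturase, one of -1.02 (SE 0.40, 95% interval -1.86 to -0.19). The list's median was 0.082 without SH SO2 replicate 2 and 0.083 without SD SO2 replicate 2. Of the defining fat markers, the fatty acid binding protein gene Fabp4 had a value of -0.069 (SE 0.47) and the adipokine gene Cfd one of 0.43 (SE 0.32), and Plin1 was too dim to be tested. The summed adipocyte signal was 21588 to 23181 in SH air, 19802 to 22042 in SH SO2, 21813 to 23885 in SD air and, after SO2, 18554 to 25245 in SD arrays, with overlapping ranges. Fabp4 measured 50.4 to 158 in SH air and 70.5 to 179.7 in SH SO2, and Cfd 136 to 211 and 162 to 244. In SD rats Fabp4 measured 74.9 to 165 in air and 108 to 191 in SO2, and Cfd 174 to 301 and 143 to 288. These ranges overlapped, and the part of fat tissue in the Car3 values was not tested.

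Genes of heart and skeletal muscle had the highest median of the 32 lists, 0.33, with 17 of 25 tested members above 0. At an unadjusted p under 0.05, 4 were positive and 0 negative, against 2.25% and 2.33% of all genes. As for the other lists, these counts describe the choice of the list. Tcap, a sarcomere protein of the Z-disc, measured 319, 342, 672 and 377 in SH air and 471, 581, 504 and 636 in SH SO2. In SD rats it measured 289, 397, 694 and 308 in air and 191, 261, 261 and 297 in SO2. Replicate 3 was the highest array of both air groups, and both pairs of groups overlapped. The SH minus SD value of Tcap was 1.04 (SE 0.35, 95% interval 0.31 to 1.76). Tnni3, cardiac troponin I, had a value of 0.90 (SE 0.38, 95% interval 0.10 to 1.69), Myl7, the atrial myosin light chain, one of 0.75 (SE 0.31, 95% interval 0.11 to 1.39), and Myh6, a cardiac myosin heavy chain, one of 1.04 (SE 0.48, 95% interval 0.041 to 2.05). The same 2 air arrays, SH air replicate 3 and SD air replicate 3, were the highest of their groups for Myh6, Myl7, Tnni3 and Tcap. The summed muscle signal was 7926 to 10086 in SH air, 8792 to 10619 in SH SO2, 7944 to 11389 in SD air and, after SO2, 6933 to 9247 in SD arrays. Its ranges overlapped in both strains, and how much heart or vessel tissue each sample held was not tested. The list's median was 0.039, and Myl7 had a value of -0.043, when the title number entered as a covariate.

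Cd36, a fatty acid transporter that carries a known defect in some SH lines, was described whatever its value. Its signals were 915, 466, 342 and 384 in SH air and 209, 234, 300.5 and 305 in SH SO2. SD arrays read 2495, 655, 1211 and 1611 in air and 1395, 875, 2345 and 1681 in SO2. All SH SO2 arrays lay below all SH air arrays, and the SD groups overlapped with SD air replicate 2 lowest. The strain difference was -1.02 (SE 0.49, 95% interval -2.04 to 0.0012) and -0.68 without that array.

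Circadian clock genes had the lowest median of the 32 lists, -0.31 and -0.35 without SD air replicate 2, with 3 of 17 tested members above 0. Without SH SO2 replicate 3 the median was -0.19. The list's median SO2 effect was -0.063 in SH and 0.26 in SD rats. Per1, a repressor of the clock that glucocorticoids also induce, measured 569, 435, 455 and 318 in SH air and 237, 441, 171 and 364 in SH SO2. SD signals were 247, 425, 35.5 and 385 in air and 397, 528, 418 and 535 in SO2. SD air replicate 3 was far below every other array, and both pairs of groups overlapped. The strain difference of Per1 was -1.71 (SE 0.65, 95% interval -3.06 to -0.35), and -1.01 without SD air replicate 3. Tef, a clock output transcription factor, is the other member at an unadjusted p under 0.05. Its promoter in the RefSeq table (GRCr8), the 250 bases before the start, is shown because it holds 1 match, in capitals, to CACGTG, the E-box bound by the core clock activators.
Tef, chr7:115206577-115206826, plus strand: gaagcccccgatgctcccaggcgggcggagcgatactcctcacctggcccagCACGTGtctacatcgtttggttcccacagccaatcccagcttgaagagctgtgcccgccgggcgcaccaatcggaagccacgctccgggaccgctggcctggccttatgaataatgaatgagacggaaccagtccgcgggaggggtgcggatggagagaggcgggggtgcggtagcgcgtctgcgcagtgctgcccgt
The motif reads the same on both strands and occurred in 5.59% of 33469 promoters of that length and in 4 of 16 found for tested clock genes.

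Tef measured 281, 261, 260.5 and 213 in SH air and 192, 208, 214 and 209 in SH SO2. In SD rats it measured 228, 209, 222 and 237 in air and 224, 213, 334 and 339 in SO2. SH SO2 arrays were below 3 of 4 SH air arrays, and SD SO2 replicates 3 and 4 stood above all others. SH minus SD effects came to -0.54 (SE 0.24, 95% interval -1.03 to -0.042). Other members were picked after their values were seen, and none of them was at an unadjusted p under 0.05. The repressor Per2 (0.38 in SH and 0.94 in SD rats) and the output factor Dbp (0.44 in SH and 1.05 in SD rats) had negative strain differences of -0.56 (SE 0.37) and -0.62 (SE 0.45). Bmal1, a core activator, had a positive one of 0.54 (SE 0.40), with -0.13 in SH and -0.67 in SD rats. Dbp in SD air measured 175, 807, 586 and 734, and Bmal1 in SD air measured 356, 155, 249.8 and 229. SD air replicate 1 was the lowest of the group for Dbp and the highest for Bmal1. Time of day at sampling was not stated in the labels used, and its part in the values was not tested.

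**Figure D4:**
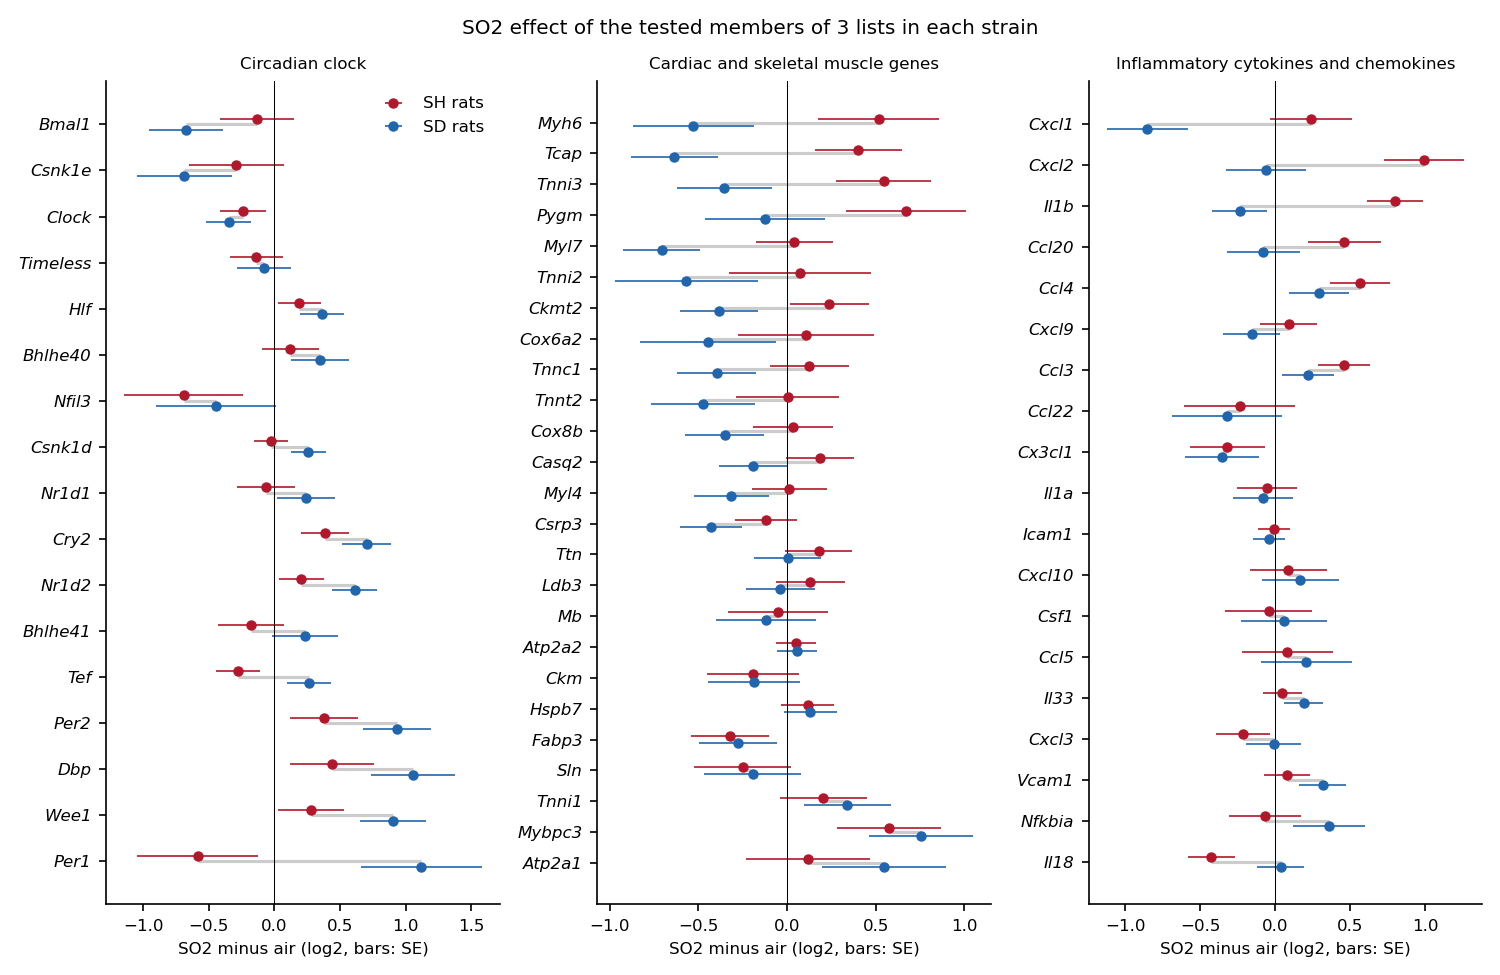
SO2 minus air (log2) in SH rats (red) and SD rats (blue) for the tested members of 3 lists, ordered by strain difference; bars are the SE of each effect. Most clock genes have higher SD than SH values, most muscle genes the reverse, and in the inflammatory list Cxcl1, Cxcl2 and Il1b stand at the top with strain differences of 1.04 to 1.09.

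Heat shock genes lay mostly below 0, with 5 of 22 tested members above 0 and a median of -0.19. Effects were below 0 in both strains, in 21 of 22 members in SH and 19 of 22 in SD rats, with medians of -0.38 and -0.13. Hsf2, a heat shock transcription factor, measured 292, 255, 284 and 365 in SH air and 204, 224, 164 and 259 in SH SO2. SD signals were 180.2, 215, 194 and 215 in air and 306, 183, 282 and 350.2 in SO2. In each strain 1 SO2 array lay among the air arrays. This gave a strain difference of -0.89 (SE 0.27, 95% interval -1.45 to -0.32). Hsph1 encodes a large co-chaperone of heat shock protein 70. Its promoter in the RefSeq table (GRCr8), the 250 bases before the start, is shown because it holds 1 match, in capitals, to the heat shock element (GAA, TTC and GAA with any 2 bases between neighbours), searched on both strands.
Hsph1, chr12:10427118-10427367, plus strand: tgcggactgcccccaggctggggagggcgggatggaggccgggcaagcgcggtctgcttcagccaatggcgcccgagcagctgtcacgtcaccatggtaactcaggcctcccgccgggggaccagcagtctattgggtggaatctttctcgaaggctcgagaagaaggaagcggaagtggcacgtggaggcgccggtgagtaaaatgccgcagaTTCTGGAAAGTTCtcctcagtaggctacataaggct
That motif occurred in 0.663% of 33469 promoters of that length and in 3 of 18 found for tested heat shock genes.

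Hsph1 measured 1769.7, 2142, 3114 and 2254 in SH air and 1499, 1451, 1114 and 2139 in SH SO2. In SD rats it measured 2486, 1450.3, 1144 and 1284 in air and 1837, 1545, 1458 and 1512 in SO2. SH air replicate 3 and SD air replicate 1 were the highest arrays of their groups, and the groups overlapped in both strains. The resulting strain difference was -0.64 (SE 0.31, 95% interval -1.28 to -0.003). Hspa1a, the inducible heat shock protein 70, was picked after its values were seen. It measured 1292, 2605, 6498 and 2367 in SH air and 3387, 1616, 1446 and 1042 in SD air. The same 2 arrays were highest for it as for Hsph1. Its effects were -1.35 in SH and -0.86 in SD rats, and its strain difference was -0.49 (SE 0.53, 95% interval -1.59 to 0.60). The list's median was -0.095 without SH air replicate 3, -0.096 without SD air replicate 4 and 0.023 with the title number as a covariate. In the unfolded protein response list 11 of 22 members lay above 0. Hyou1, a chaperone of the endoplasmic reticulum, was its 1 member at an unadjusted p under 0.05, with a strain difference of -1.13 (SE 0.38, 95% interval -1.91 to -0.34). A second Hyou1 probe set gave -1.06 (SE 0.31).

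SO2 and air arrays were apart in both strains, and in opposite order, for 6 of 11106 probe sets (0.0540%), and in the same order for 15 (0.135%). Leaving out 1 array, which makes such separation easier, gave 6 to 16 in opposite order (16 without SH SO2 replicate 4) and 18 to 53 in the same order (53 without SD air replicate 4). Those in opposite order with all arrays were Pxdc1, Shisa9, Stat3, Psmc5, Map4k4 and Usp2. Pxdc1, which encodes a PX domain protein, measured 2839, 2834, 2966 and 2444 in SH air and 3679, 3383, 3735 and 3049 in SH SO2. SD signals were 3238, 3101, 3257 and 3730.4 in air and 2424, 2614, 2767 and 2362 in SO2. SO2 arrays lay above air arrays in SH rats and below them in SD rats, so the strains crossed over. The strain difference was 0.71 (SE 0.14, 95% interval 0.41 to 1.00), with an adjusted p of 0.447 by limma. Shisa9, which encodes a modulator of glutamate receptors, was dimmer, at 134, 144, 115 and 119 in SH air and 206, 286, 266 and 163 in SH SO2. In SD rats its signals were 118, 116, 130.5 and 136 in air and 109, 103, 62.3 and 87.0 in SO2. Its order was that of Pxdc1, and its strain difference was 1.18 (SE 0.32, 95% interval 0.51 to 1.84).

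Psmc5 encodes an ATPase subunit of the proteasome cap. It measured 938, 1014, 976 and 1029 in SH air and 634, 658, 757 and 878 in SH SO2. Its SD signals were 786, 840.1, 776 and 693 in air and 855, 840.5, 963 and 931 in SO2. SH SO2 arrays were below SH air arrays, while SD SO2 arrays were only just above SD air arrays at replicate 2 of each. SH minus SD effects came to -0.65 (SE 0.16, 95% interval -0.99 to -0.31). Map4k4, a stress kinase, and Usp2, a deubiquitinase, were apart on a probe set that is not the gene's brightest. The strain difference was -0.82 on that probe set of Map4k4 and -0.019 on the brightest. For Usp2 these values were -0.78 and -0.57. The Map4k4 probe sets thus disagree and those of Usp2 have the same sign.

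Srsf5, a serine and arginine rich splicing factor, had nearly equal effects in the strains. Its signals were 1425, 1329.6, 1266 and 1324 in SH air and 2306, 2286, 1601 and 2159.7 in SH SO2. In SD rats they were 1347, 1539, 1236 and 1879 in air and 1956, 2749, 2631 and 2043 in SO2. SO2 arrays lay above air arrays in both strains. The effects were 0.62 in SH and 0.64 in SD rats, and the strain difference was -0.017 (SE 0.21, 95% interval -0.45 to 0.42), which changed sign in 7 of the other settings. The others in the same order in both strains included Plac8 (strain difference 0.0024), Ets1, a transcription factor of endothelium and lymphocytes (0.07), and Lhfpl2 (-0.10). These 3 were chosen after their values were seen.

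The other genes among the 24 had these values. Gtf2i, a general transcription factor, measured 1941, 1809, 2061 and 1873 in SD air and 1398, 1288, 1297 and 1406 in SD SO2. In SH rats it measured 1564, 1350.1, 1514 and 1608 in air and 1669.8, 1584, 1638 and 1443 in SO2. The SD groups did not overlap and the SH groups did. Its strain difference was 0.58 (SE 0.13, 95% interval 0.29 to 0.86). Meg3, an imprinted long noncoding RNA, measured 174, 201, 176 and 177 in SH air and 278, 432, 294 and 293 in SH SO2. In SD rats it measured 260.1, 212, 252 and 236 in air and 208, 215, 170.4 and 284 in SO2. SH SO2 arrays were all above SH air arrays, with replicate 2 highest, and SD groups overlapped. The difference between strains for Meg3 was 0.90 (SE 0.25, 95% interval 0.38 to 1.42).

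Uqcrq, a subunit of respiratory complex III, had 0.29 in SH and -0.58 in SD rats, a strain difference of 0.86 (SE 0.23, 95% interval 0.38 to 1.35). Map1b, a microtubule-associated protein of neurons, had 0.59 in SH and -0.47 in SD rats, a strain difference of 1.06 (SE 0.30, 95% interval 0.42 to 1.69). Among the negative values, Adam3a, a sperm surface protein, had -0.32 in SH and 0.66 in SD rats and a strain difference of -0.98 (SE 0.26, 95% interval -1.53 to -0.44). Haus7, a subunit of the spindle complex augmin, had -0.81 in SH and 0.65 in SD rats and a strain difference of -1.45 (SE 0.44, 95% interval -2.37 to -0.54). Optn, an autophagy receptor, had a strain difference of -0.79 (SE 0.24, 95% interval -1.29 to -0.29), Brms1l, a member of a histone deacetylase complex, one of -0.63 (SE 0.18), and Secisbp2l, which resembles a selenoprotein synthesis factor, one of -0.79 (SE 0.21, 95% interval -1.24 to -0.35). For these 3 the SH SO2 arrays were all below the SH air arrays, while the SD groups overlapped.

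Within a strain limma called 0 of 11106 probe sets (0%) for SO2 against air in SH and 0 (0%) in SD rats, with 537 and 915 at an unadjusted p under 0.05. The 10 genes of smallest p for SO2 in each strain were set beside their values in the other strain, which share no array. Of the 10 chosen in SH rats, 5 had the same sign in SD rats, with a median size of 0.76 in SH and 0.18 in SD rats. Of the 10 chosen in SD rats, 7 had the same sign in SH rats, with a median size of 0.65 in SD and 0.088 in SH rats. Genes chosen for a small p are large in the strain that chose them, so this fall in size describes the choice. Beside those given above, Nsmaf, an adaptor of a tumour necrosis factor receptor, had 0.67 in SH and 0.049 in SD rats, and Glis2, a zinc finger transcription factor, had 0.48 in SH and 0.10 in SD rats. Dnaja1, a co-chaperone, had -0.75 in SH and -0.36 in SD rats, a strain difference of -0.39 (SE 0.26) that was -0.22 without SD air replicate 3. It was -0.59 without SD air replicate 1. Those chosen in SD rats included the membrane proteins Cd81 (-0.064 in SH and -0.39 in SD rats) and Cd99 (-0.072 in SH and -0.65 in SD rats). The SH minus SD value of Cd99 was 0.58 (SE 0.22, 95% interval 0.11 to 1.05), and 0.37 without SD air replicate 3. Atp2a3, a calcium pump, had 0.20 in SH and 0.45 in SD rats, and LOC100912041, an uncharacterised locus, had 0.22 in SH and 0.65 in SD rats. Among the 100 probe sets of smallest p in SH rats, 65 had the same sign in SD rats, and among the 100 in SD rats, 76 had the same sign in SH rats, against 55.3% over all probe sets. Without SD air replicate 2 these were 62 and 68, against 52.3%.

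Suox, sulfite oxidase, the enzyme that clears sulfite as sulfate, was described whatever its value. Its signals were 427, 415, 385 and 431 in SH air and 373, 359.8, 351 and 366 in SH SO2. The SD signals were 299.9, 367, 271 and 393 in air and 316, 379, 328 and 186 in SO2. SH SO2 arrays lay below SH air arrays, and the SD groups overlapped with SD SO2 replicate 4 lowest. The effects were -0.18 in SH and -0.16 in SD rats, and the strain difference was -0.023 (SE 0.25, 95% interval -0.54 to 0.49), a value that changed sign in 8 of the other settings. Of 21 sulfur metabolism genes 11 lay above 0, with a median of 0.0031. Mat1a and Mat2a, which make the methyl donor S-adenosylmethionine, had values of opposite sign, 0.77 (SE 0.35) and -0.45 (SE 0.20), and that of Mat1a was 0.50 without SH air replicate 2. Got1, an aminotransferase of sulfur amino acid and aspartate metabolism, had one of -0.76 (SE 0.31). In the Nrf2 antioxidant list 21 of 38 members lay above 0, with a median of 0.013. Its 2 members at an unadjusted p under 0.05 were Mgst1, a microsomal glutathione transferase (0.49, SE 0.20), and Gsr, glutathione reductase (0.57, SE 0.24). In the glucocorticoid list 11 of 19 lay above 0, with a median of 0.015. Without SD air replicate 2 these were 7 of 19 and -0.095. At an unadjusted p under 0.05 the list had 1 negative and 1 positive member. The positive one was the metallothionein Mt2A at 0.57 (SE 0.27), which had 0.49 without that array (limma, unadjusted p 0.097).

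Alveolar type I cell genes lay mostly above 0 (11 of 15, median 0.091) and type II cell genes mostly below (7 of 23 above, median -0.064). The type I median was 0.022 without SD SO2 replicate 1 and 0.18 without SD air replicate 3. In the first list Pdpn, the type I cell protein podoplanin, had a value of 0.31 (SE 0.13) and Scnn1b, a subunit of the epithelial sodium channel, one of 0.41 (SE 0.18). The third member at an unadjusted p under 0.05 was Clic5, which measured 1465, 4866, 4801 and 1100.2 in SH SO2 and 1270.3, 1082, 1144 and 5051 in SD air. It lay between 1042 and 1569.6 on the SH air and SD SO2 arrays. The strain difference of Clic5, 1.38 (SE 0.63), thus rested on 3 bright arrays and was 0.86 without SD air replicate 4 and 0.38 with the title number as a covariate. In the second list Scd and Fabp5, given above, were at that threshold. Endothelial genes lay above 0 in 18 of 26 (median 0.17), with Thbd, thrombomodulin, at 0.28 (SE 0.13) and Flt4, the lymphatic growth factor receptor, at -1.40 (SE 0.46). The endothelial median was 0.061 without SD SO2 replicate 1 and 0.11 without SD air replicate 2. The 2 other Thbd probe sets gave values of opposite sign, -0.022 and -0.15, and the average over Thbd probe sets gave 0.037. Blood pressure and vasoactive genes lay above 0 in 16 of 23, with a median of 0.22, and 0 were at an unadjusted p under 0.05. That median was 0.12 without SH SO2 replicate 3, SD SO2 replicate 1 or SH air replicate 4, 0.13 without SH air replicate 1 and 0.14 without SD air replicate 4. Sterol synthesis genes lay above 0 in 6 of 19 (median -0.10), with Idi1 (-0.72), Tmem97 (-0.59) and Cyp51 (-0.57) negative at that threshold. A second Idi1 probe set disagreed, at 0.096, with -0.31 for their average, and a second Cyp51 probe set gave -0.60.

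Among genes given above, the strain differences that moved by over 1.5 times with the title number as a covariate also included Loxl1 at 0.48, Tcap at 0.54, Tnni3 at 0.42, Pck1 at 0.41, Tapbp at 0.26 and Ckmt1 at 0.51, each smaller than without it. Those of Per1 at -1.12, Hsph1 at -0.28, Klf6 at -0.27, Flt4 at -0.73, Mat2a at -0.20 and Cyp51 at -0.35 were smaller as well. So were those of Cd81 at 0.13, Glis2 at 0.11 and LOC100912041 at -0.22, and that of Dnaja1 changed sign to 0.098. Those of Hyou1 at -2.01, Scd at -1.61, Mat1a at 1.20 and RT1-T24-4 at -0.77 were larger. The list medians of neutrophil markers (0.40), T and natural killer cell genes (-0.42), club cell genes (-0.042), ciliated cell genes (-0.090), endothelial genes (0.10), adipocyte genes (0.093) and blood pressure genes (0.045) moved as far.

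Over the 32 lists, medians ran from -0.31 for clock genes to 0.33 for muscle genes, and 0 lists held a called gene. The remaining lists had medians within 0.1 of 0, apart from neutrophil markers at 0.12, which was -0.049 without SD air replicate 2, -0.15 without SD SO2 replicate 2 and 0.37 without SD air replicate 3. For all 19 lists with a median within 0.1 of 0, leaving out 1 array or another changed its sign or moved it by over 1.5 times. The medians of 3 lists (club cell, muscle and matrix genes) did not move that far without any 1 array. Of 10 mast cell, eosinophil and type 2 genes 4 lay above 0 (median -0.094), of 20 smooth muscle genes 7 (-0.066), of 26 proliferation genes 13 (-0.037), of 26 splicing genes 7 (-0.051), of 11 erythroid and platelet genes 5 (-0.058) and of 4 B and plasma cell genes 2 (-0.032). Counts at an unadjusted p under 0.05 by limma depended on SD air replicate 2 as well. List members over that threshold without it included Gsr, Mt2A, Pdpn, Thbd, Ier3, Tef, Mat1a, Fabp5 and Hsph1. Of all listed genes 8.91% were at an unadjusted p under 0.05 by limma, against 4.58% of all genes. The lists were chosen with earlier results of these data known, so that share describes the choice. Members of a list share cells and regulation, so these medians and counts describe the lists.

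**Figure D5:**
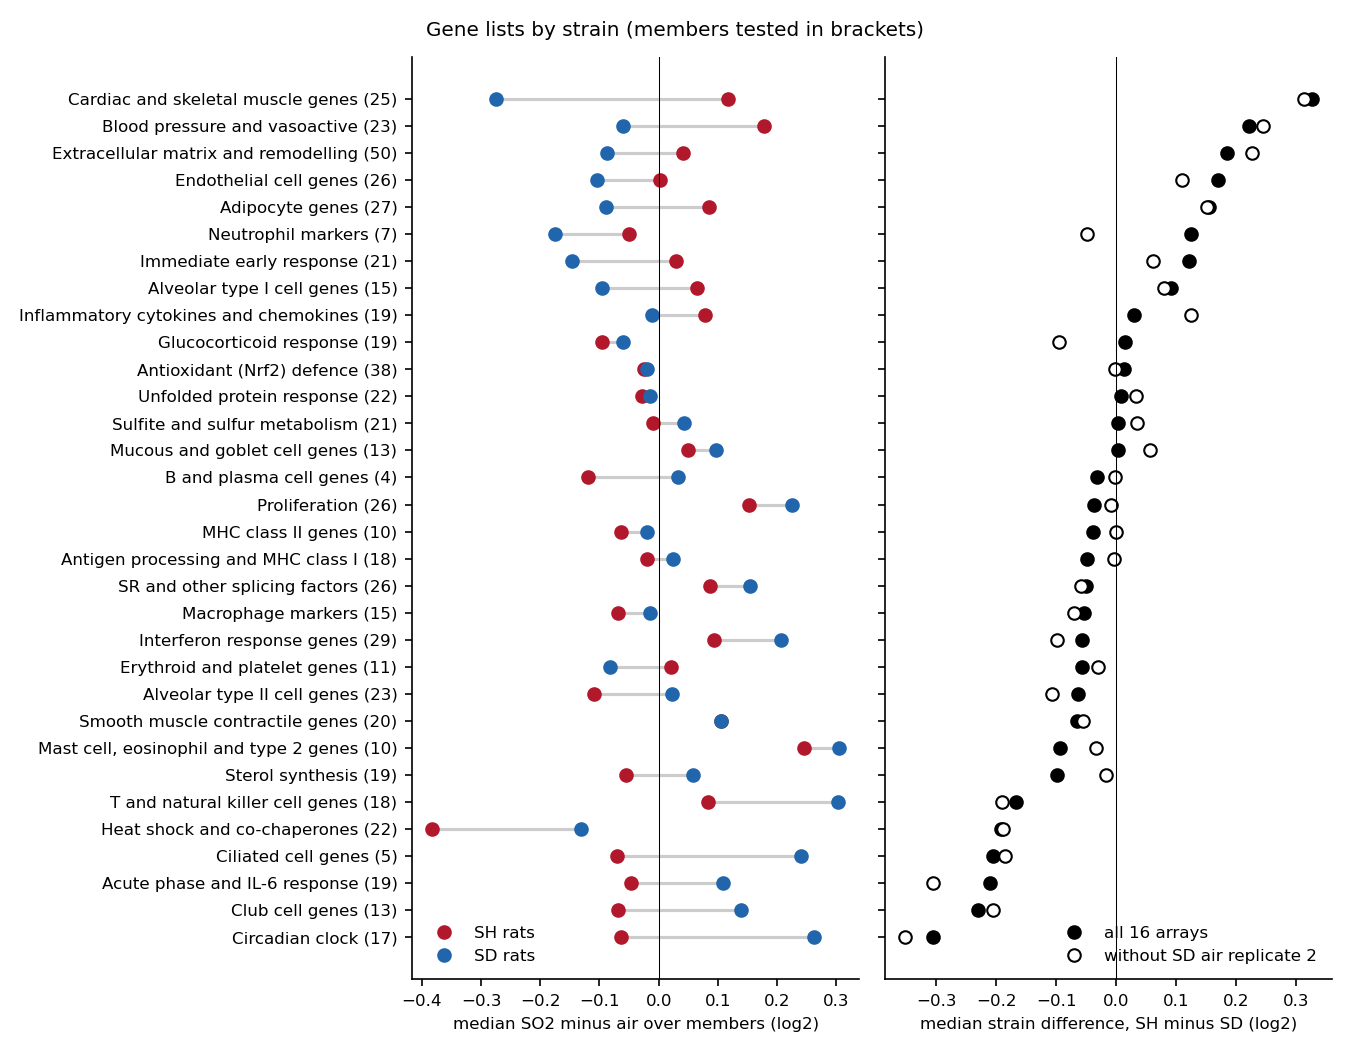
Left: median SO2 minus air (log2) over the tested members of each of 32 gene lists in SH rats (red) and SD rats (blue). Right: median strain difference (SH minus SD, log2) with all 16 arrays (filled) and without SD air replicate 2 (open). Muscle genes lie highest at 0.33 and clock genes lowest at -0.31, and the neutrophil median changes sign without that array.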

How the data were processed

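Lung RNA of 16 samples, 4 per group, had been hybridised to Affymetrix arrays. The values are a linear intensity per probe set that the authors deposited in the series' value table. GCOS is named in the submitters' processing notes, and its version and the summary method were not stated there. The trimmed mean (2% off each end) lay between 499.9 and 500.2 on every array, so the deposited intensity values had been scaled to a common level. Of 15923 probe sets, 57 control probe sets and the dimmest 30% of the rest by mean over all arrays were left out, leaving 11106. Of 15866 non-control probe sets, 12783 had 1 gene symbol, 312 several and 2771 none in the platform annotation.

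log2(intensity + 16) was fitted with 4 group means (limma 3.58.1 in R 4.3.3, eBayes with a trend, 12 residual degrees of freedom), and the strain difference was tested as a contrast with Benjamini-Hochberg adjustment at 0.05 over all probe sets. A fold on this scale understates the change of dim probe sets. Each gene was read from its tested probe set of highest mean. The script was tested on simulated data. Python 3.11.15, pandas 2.3.3 and matplotlib 3.10.9 served for promoters and plots.

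The text names the 12 genes of smallest p in each direction, up to 3 members of each list at an unadjusted p under 0.05, Suox and Cd36, genes apart in both strains in opposite order, the 10 genes of smallest p for SO2 in each strain and the 6 for strain in SO2, with Terf2ip. Members, rules and all 32 lists were chosen with earlier results of these data known. Alternatives were the offset, scaling, filter, variance prior, array weights, 3 covariates, a replicate block, probe set averaging and leaving out each array. Same-order separation was counted after seeing the data. The number of arrays limits the precision.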

Additional observations from a re-analysis of the deposited data

Results flagged for a closer look

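For 6 probe sets SO2 and air arrays were apart in both strains and in opposite order; limma's test of the difference itself did not pass for any. The strain differences were 0.71 for Pxdc1, 1.18 for Shisa9, -1.01 for Stat3, -0.65 for Psmc5, -0.82 for Map4k4 and -0.78 for Usp2. Those of Map4k4 and Usp2 are from a dimmer probe set, and their brightest gave -0.019 and -0.57.

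In 22 of 304 groups of 4 arrays of the named genes (7.24%), 1 array stood far from the other 3. About 1 in 20 would for normally distributed values. The named genes were chosen by their values on these arrays, so these shares cannot be compared. Among SD air arrays, Terf2ip was low on replicate 2 (694, the others 1982 to 2363). Stap2 (68.3), Gp2 (320.0) and Clic5 (5051) were far from the rest on replicate 4, Stap2 low and the other two high, and Mat2a was low on replicate 3 (979). Among SD SO2 arrays, Stat3 (2995) and Ier3 (967) were high and Ctsd (7397) and Nsmaf (565.5) low on replicate 2. On replicate 1 of that group Pck1 was high (214) and Loxl1 (309) and Pdpn (6148) were low, while Stap2 was low on replicate 3 (111) and Defb4 high on replicate 4 (21205). Among SH air arrays, Meg3 was high on replicate 2 (201), and on replicate 3 Myl7 was high (1089) and Idi1 low (249.9). Among SH SO2 arrays, Meg3 (431.5) and Tapbp (902) were high on replicate 2, Flt4 was low on replicate 3 (42.4), and on replicate 1 Myl7 was low (588) and Cyp2f4 high (838). The highest actin ratios of the series were those of SH SO2 replicate 1 (3.12) and SD SO2 replicate 2 (2.94). The part of RNA quality in these values was not tested.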

How the results depend on the processing

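limma called 0 probe sets for the strain difference in each of 30 other settings, 16 of them leaving out 1 array. Probe sets at an unadjusted p under 0.05 numbered 382 (without SH air replicate 1) to 754 (without SH SO2 replicate 4) as single arrays were left out, and 290 with the title number as a covariate. Those apart in both strains numbered 6 to 16 in opposite order and 18 to 53 in the same order as arrays were left out. The correlation of the strains' effects across probe sets was 0.025 to 0.24 as arrays were left out, 0.17 with array weights and 0.20 with the actin ratio as a covariate. With the replicate block, limma called 0, with 483 at an unadjusted p under 0.05. The replicate numbers only name the arrays, so they cannot show whether arrays were paired or processed together. Over 24 pairs of same-numbered arrays the deviations correlated at -0.43 to 0.15, 4 of them over 0.1. Of 16 arrays, 1 correlated best with its own number.

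Of 76 named genes, the sign changed in 17 combinations of gene and setting. With the title number as a covariate, Myl7 had -0.043, Dnaja1 0.098, Suox 0.070 and Srsf5 0.0075. Suox, near 0 throughout, had 0.011 after quantile normalization and 0.022 with the 10th percentile as a covariate. As single arrays were left out, Suox ran from -0.23 to 0.095, above 0 in 5 cases, and Srsf5 from -0.13 to 0.10, above 0 in 6. The cause was not tested. Signal over background limits the dimmest genes, and 4 arrays a group limit the rest: the median 95% interval reached 0.51 on either side.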

Other observations

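Clic5, a chloride channel family protein, and Lifr, the receptor of leukemia inhibitory factor, were both bright on the same 3 arrays of different groups. On SH SO2 replicates 2 and 3 and SD air replicate 4, Clic5 measured 4866, 4801 and 5051, and Lifr measured 561, 491 and 738. On the other 13 arrays Clic5 measured 1042 to 1569.6 and Lifr 60.8 to 150.4. The 3 arrays had 10th percentiles of signal of 26.8, 24 and 24.3, against 17.0 to 25.5 on the others. Lifr was chosen after its values were seen. On the same 3 arrays Stat3 measured 863, 895 and 1554, Stap2 19.0, 63.4 and 68.3, and Tap2 182, 103 and 196, and SD air replicate 4 was the lowest SD air array for all 3 of these genes.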
